A study of Mus musculus with 18 samples.

Results

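The 44 genes described here encode the proteins that license replication origins, unwind DNA and copy it at the fork. They were taken from the gene table by symbol, from a list of the origin recognition complex, the replicative helicase with its loading and activating factors, the replicative polymerases, the sliding clamp with its loaders, the single-strand binding complex, the enzymes that join Okazaki fragments, the fork's chromatin assembly factor and the checkpoint mediator Claspin. All 44 were among the 18522 genes of the table, and all 44 were among the 14871 genes that passed the filter on low counts and were tested. The rule that lists them uses no measured value, but the list was chosen with earlier results of these data known.

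RNA was sequenced from naive CD8+ T cells of wild-type male C57BL/6N mice of 8 to 12 weeks. The cells came from lymph nodes and spleen and were activated in culture by antibodies to CD3 and CD28 fixed to the plate. For such cultures the study's methods also list mouse IL-2 and IL-12. The medium was made without asparagine (Asn restriction) or was complete (control). In the study's methods the Asn-free medium held dialyzed serum and added alanine, and alanine was also added to the amino acid-proficient control medium. Cells were collected at 4, 24 and 72 h, which gives 6 groups of 3 libraries: Asn restriction and control at each time. All groups shared the strain, the genotype and the stimulus, and none was left unactivated. The study calls the 4 h libraries experimental replicates and describes its sequencing data as representative of a single experiment. It does not say whether the libraries of a group came from separate mice or cultures. The p-values therefore measure only the spread between these libraries. RNA came from whole cultures, in which fewer cells of a type and less RNA per cell cannot be told apart.

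A replicating cell builds its forks in steps. In G1 the origin recognition complex (ORC), with Cdc6 and Cdt1, loads the ring of Mcm2 to Mcm7 onto DNA, and geminin (Gmnn) blocks Cdt1 once S phase has begun. Cdc45 and the GINS complex then turn the ring into an active helicase, primase and DNA polymerase alpha start each strand, and polymerases epsilon and delta extend them while held by the PCNA clamp. A resting T cell holds little of this machinery, which is made anew after activation, and many of its genes are known targets of the E2F transcription factors.

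The libraries held 11417641 to 21872456 counts for mouse genes (median 17975326). Asparagine synthetase (Asns), which cells are known to raise when Asn is scarce, was higher under Asn restriction in every library at each time. It had 71.5, 72.7 and 64.8 CPM under Asn restriction against 27.9, 24.2 and 26.1 CPM in control medium at 4 h, 106, 104 and 104 CPM under Asn restriction against 62.98, 66.5 and 64.3 CPM in control medium at 24 h, and 378, 356 and 364 CPM under Asn restriction against 237, 263 and 234 CPM in control medium at 72 h (CPM, counts scaled to a fixed library total with TMM factors), with log2 fold changes of 1.41 ± 0.06 at 4 h, 0.70 ± 0.06 at 24 h and 0.58 ± 0.05 at 72 h (± SE). The 12 markers of CD8+ T cells summed to 2716 to 3806 CPM in a library, whereas of 5 markers of CD4+ and regulatory T cells Cd4 reached at most 1.52 CPM, Foxp3 1.96 CPM, Cd40lg 10.7 CPM, Zbtb7b 128 CPM and Ctla4 358 CPM. The replicate 2 library of control cells at 72 h stood apart from its group. Its mitochondrial share of counts was 0.439%, against at least 0.741% in every other library, and its counts differed from those of the other replicates by 11.5 and 16.2 times the sampling variance (chi-square per degree of freedom), against 3.33 between those replicates. The counts of calls over all 44 genes that use it are given with and without it. So are single genes whose call it decided.

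The 44 genes together took 0.135 to 0.138% of all counts under Asn restriction and 0.174 to 0.176% in control medium at 4 h. At 24 h they took 0.433 to 0.445% under Asn restriction and 0.833 to 0.844% in control medium. At 72 h the order was turned round, with 0.546 to 0.556% under Asn restriction and 0.396 to 0.403% in control medium. The groups did not overlap at any time. The highest mean level of 39 of the 44 genes was in control cells at 24 h, and that of Orc5, Orc6 and Rfc3 was in Asn-restricted cells at 72 h. The share of all genes with their highest mean in control cells at 24 h was not counted. In control cells 34.9% of all genes tested were higher at 24 h than at 4 h (edgeR adjusted p under 0.05). By the same test 35.1% were lower at 72 h than at 24 h.

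**Figure D1:**
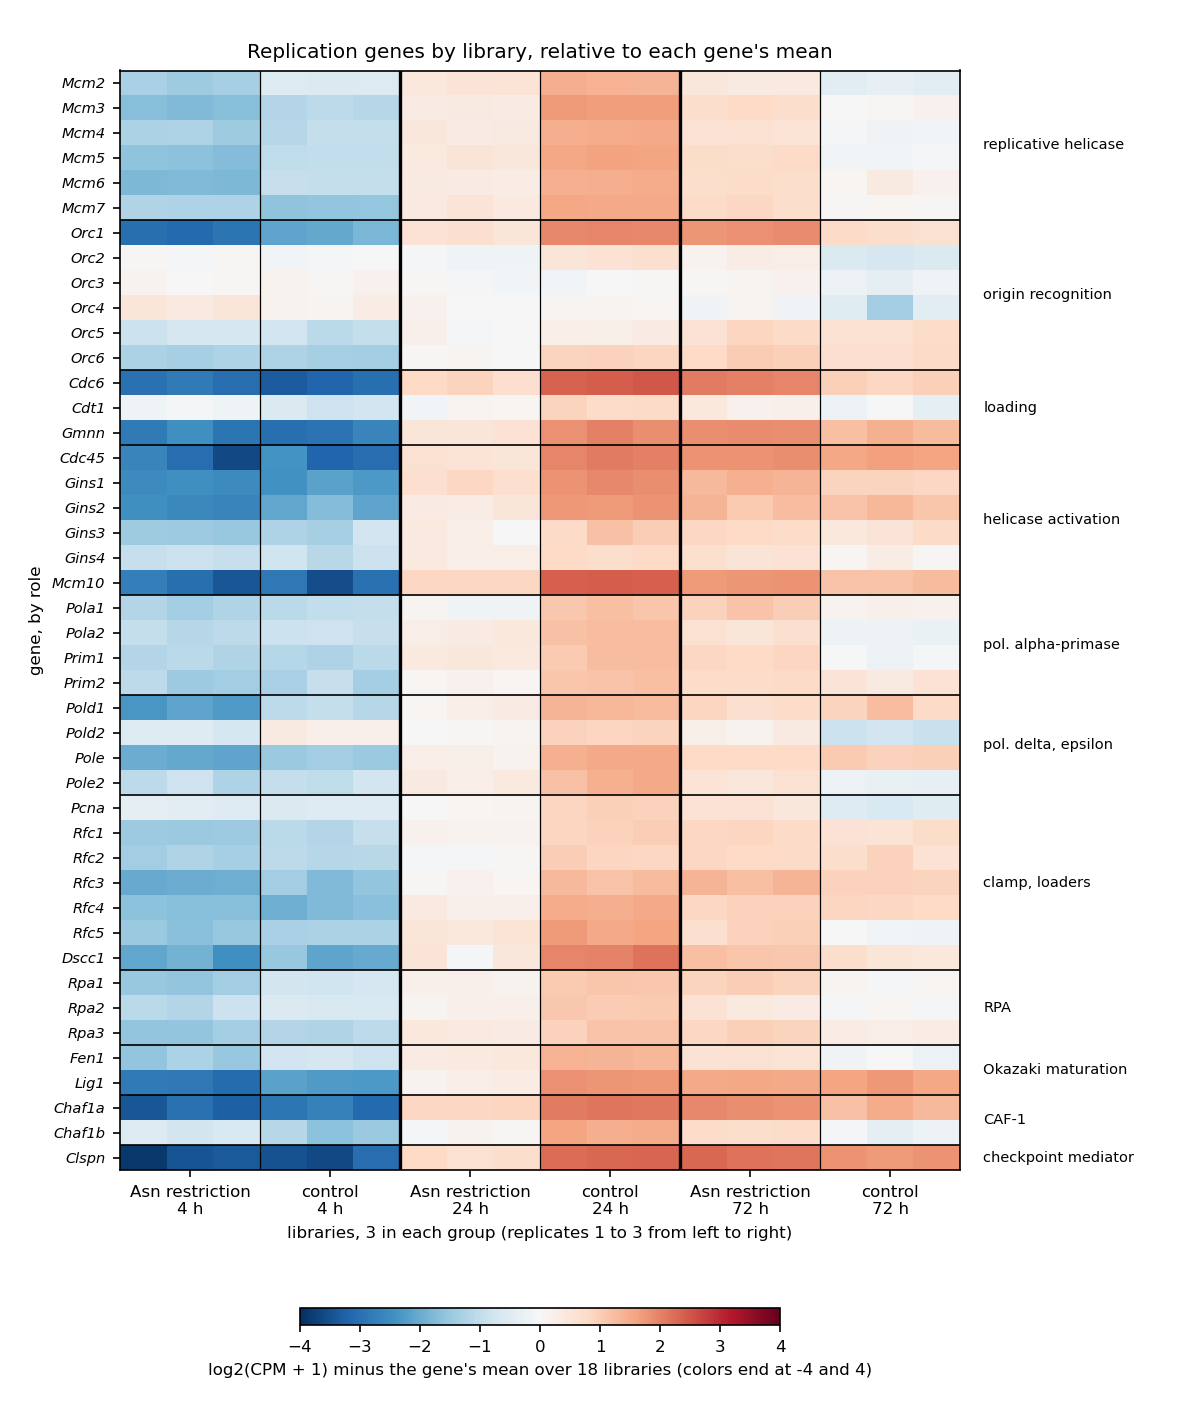
Level of each of the 44 genes (rows, by role) in each of the 18 libraries (columns, 3 a group), as log2(CPM + 1) minus the gene's mean over all libraries, with red above and blue below that mean. Control libraries at 24 h have the highest mean for 39 of the 44 genes, and the row of Orc3 changes little.

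Genes were compared between the media at each time by edgeR's quasi-likelihood test on counts, and p-values were adjusted over all 14871 genes with a threshold of 0.05. A gene past that threshold is called higher or lower below. Levels are in CPM, and each difference is a log2 fold change of Asn restriction over control with its SE, 3 libraries against 3. At 4 h, 22 of the 44 genes were lower and 3 were higher under Asn restriction, and their median log2 fold change was -0.32. Of all genes tested, 22% were lower at 4 h and the median change was 0.02. At 24 h, 41 of 44 were lower and none was higher, with a median of -1.10, where 28% of all genes were lower and the median change was 0.01. At 72 h, 36 of 44 were higher and 2 were lower, with a median of 0.58, where 25.4% of all genes were higher and the median change was -0.01. The libraries of the media did not overlap for 28 of the 44 genes at 4 h (54.7% of all genes tested), for 42 at 24 h (61.3%) and for 38 at 72 h (53.6%). With the libraries scaled by spike-in totals in place of TMM, 15 of the 44 were lower and 1 higher at 4 h, 39 were lower at 24 h, and 37 were higher with none lower at 72 h. That scaling moved the median of all genes by -0.13, 0.23 and 0.32 at the 3 times, and relative to the new median of all genes the medians of the 44 were -0.36, -1.12 and 0.60. Spike-in shares of counts also differed within groups. Under Asn restriction they were 1.42 to 1.61% at 4 h, 1.257 to 1.358% at 24 h and 0.829 to 1.497% at 72 h. In control medium they were 1.352 to 1.616%, 1.276 to 1.543% and 1.376 to 1.724% at the same times. Whether this spread removed calls under spike-in scaling was not tested. Without the library that stood apart, 36 of 44 were higher and 1 lower at 72 h, with a median of 0.60.

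**Figure D2:**
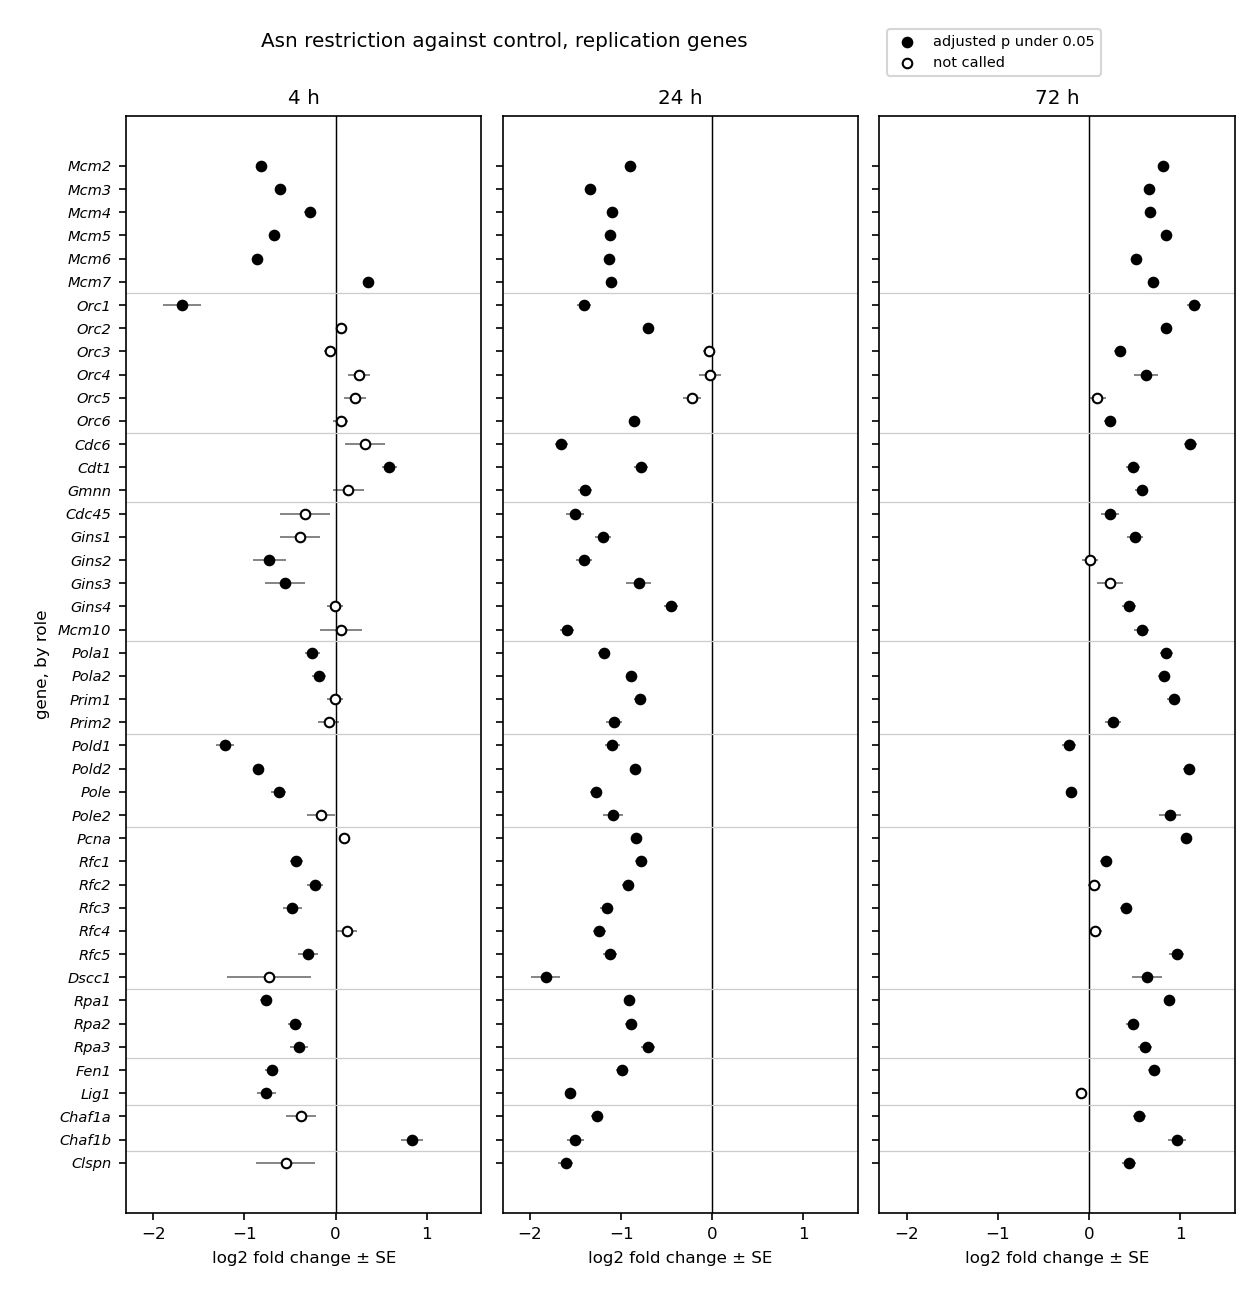
Log2 fold change of Asn restriction over control (horizontal axis, ± SE) for each of the 44 genes at 4, 24 and 72 h, with filled points for adjusted p under 0.05 and open points for genes not called. At 24 h 41 points are filled and lie below 0, and at 72 h 36 filled points lie above 0 with Pold1 and Pole below it.

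The helicase subunits Mcm2 to Mcm7 form the ring that unwinds DNA. Under Asn restriction 5 of the 6 were lower at 4 h, all 6 were lower at 24 h (median -1.12) and all 6 were higher at 72 h (median 0.69). Mcm7 was the exception at 4 h. It had 76.1, 75.8 and 75.6 CPM under Asn restriction and 57.8, 59.1 and 60.2 CPM in control medium, a rise of 0.36 ± 0.05 with no overlap between the media (edgeR adjusted p = 4.9e-07). Mcm6 had 54.2, 54.5 and 53.5 CPM under Asn restriction and 100.1, 97.2 and 97.4 CPM in control medium at that time, a change of -0.86 ± 0.06 (edgeR adjusted p = 2.9e-14). The ring's subunits thus moved in opposite directions at 4 h and in the same direction at 24 and 72 h, although with spike-in totals the change of Mcm7 at 4 h was not called (0.22, edgeR adjusted p = 0.48).

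Mcm3 (chr1:20802968-20820312, minus strand) changed most of the ring at 24 h and Mcm5 (chr8:75109569-75128439, plus strand) most at 72 h. Mcm3 had 61.8, 58.9 and 61.3 CPM under Asn restriction against 89.05, 97.6 and 92.04 CPM in control medium at 4 h, 254, 261 and 257 CPM under Asn restriction against 659, 655 and 643 CPM in control medium at 24 h, and 331, 349.9 and 334 CPM under Asn restriction against 206, 211 and 227 CPM in control medium at 72 h. At 24 h each Asn-restricted library thus held less than every control library, with a change of -1.34 ± 0.04 (edgeR adjusted p = 4.6e-21). Mcm5 had 67.2, 66.00 and 61.6 CPM under Asn restriction against 104, 104 and 104 CPM in control medium at 4 h, 276, 301 and 287 CPM under Asn restriction against 612, 642 and 631 CPM in control medium at 24 h, and 348, 345 and 355 CPM under Asn restriction against 194, 193 and 196 CPM in control medium at 72 h. Its libraries did not overlap at any time, lying lower under Asn restriction at 4 and 24 h and higher at 72 h (0.85 ± 0.04, edgeR adjusted p = 1.8e-16). The other helicase genes changed by -1.13 (Mcm6) to -0.91 (Mcm2) at 24 h and by 0.52 (Mcm6) to 0.81 (Mcm2) at 72 h.

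The stretches upstream of 3 helicase genes are shown because Mcm5 and Mcm6 were lower and Mcm7 higher at 4 h, and all 3 hold an E2F motif there. Each run is the 200 bases before the start site of a RefSeq transcript (GRCm38.p6), 5′ to 3′ on the gene's strand, and capitals mark TTTCCCGC, TTTGGCGC, TTTCGCGC or TTTGCCGC on either strand. The windows lie at chr8:75109309-75109508 (plus strand) for Mcm5, chr1:128359706-128359905 (minus strand) for Mcm6 and chr5:138171884-138172083 (minus strand) for Mcm7.
Mcm5: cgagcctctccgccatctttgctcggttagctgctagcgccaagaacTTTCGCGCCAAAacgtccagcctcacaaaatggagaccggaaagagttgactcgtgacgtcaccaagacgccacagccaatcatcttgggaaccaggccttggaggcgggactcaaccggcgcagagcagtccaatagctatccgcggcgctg
Mcm6: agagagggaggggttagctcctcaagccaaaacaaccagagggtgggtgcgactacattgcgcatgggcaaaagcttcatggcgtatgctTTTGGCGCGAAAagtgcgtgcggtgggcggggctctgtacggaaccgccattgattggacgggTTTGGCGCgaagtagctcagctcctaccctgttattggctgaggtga
Mcm7: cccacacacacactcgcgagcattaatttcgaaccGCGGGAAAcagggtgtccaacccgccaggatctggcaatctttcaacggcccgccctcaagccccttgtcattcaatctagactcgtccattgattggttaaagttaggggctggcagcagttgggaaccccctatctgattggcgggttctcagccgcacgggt
Mcm5 held 2 matches that overlap each other on opposite strands, Mcm6 held 3, of which 2 overlap, and Mcm7 held 1. Over the longer windows of the RefSeq table, from 250 bases before the start to 50 after it, 35 of the 44 genes were found, and 15 of these 35 (42.9%) held such a motif. It stood in the windows of 2.6% of all 27025 genes in that table. The CCAAT box (CCAAT, either strand) stood in the windows of 23 of the 35 genes (65.7%) and of 41.1% of all genes. The CHR element (TTTGAA or TTCGAA, either strand) was in those of 7 of the 35 (20%) and of 21.7% of all genes. A match describes the letters alone, since no binding was measured here. GENCODE M21 places an exon of an alternative Mcm7 transcript over all 200 bases of the Mcm7 run.

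Origin recognition was divided among its subunits. ORC marks the origins and recruits Cdc6, and Orc1 is its regulated subunit in mammalian cells. Orc1, Orc2 and Orc6 were lower under Asn restriction at 24 h, whereas Orc3, Orc4 and Orc5 were the only members of the 44 not called at that time. Orc1 (chr4:108579423-108614833, plus strand) had 0.915, 0.793 and 1.05 CPM under Asn restriction against 2.58, 2.76 and 3.40 CPM in control medium at 4 h, 21.97, 22.9 and 20.7 CPM under Asn restriction against 57.3, 58.6 and 57.7 CPM in control medium at 24 h, and 51.4, 53.4 and 56.1 CPM under Asn restriction against 25.4, 24.4 and 22.7 CPM in control medium at 72 h. Its level was lower under Asn restriction in every library at 4 and 24 h (-1.69 ± 0.20 and -1.41 ± 0.08) and higher in every library at 72 h (1.15 ± 0.08, edgeR adjusted p = 2.4e-13), which was the largest rise of the 44 at that time. At 4 h Orc1 rested on few counts, 13 in the lowest library. An antisense transcript, Gm12743, covers 10.8% of its exon bases, and Nif3l1 on the opposite strand covers 29.8% of those of Orc2.

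Orc3, Orc4 and Orc5 behaved otherwise. Orc3 (chr4:34570796-34614944, minus strand) had 72.2, 65.9 and 67.7 CPM under Asn restriction against 72.2, 67.95 and 74.4 CPM in control medium at 4 h, 67.4, 63.2 and 59.97 CPM under Asn restriction against 61.2, 66.6 and 67.05 CPM in control medium at 24 h, and 67.1, 70.9 and 73.5 CPM under Asn restriction against 55.9, 50.9 and 59.8 CPM in control medium at 72 h. The media overlapped at 4 and 24 h, and Orc3 was higher under Asn restriction only at 72 h (0.34 ± 0.07, edgeR adjusted p = 9.1e-05). Orc4 (chr2:48902824-48950277, minus strand) had 76.5, 71.8 and 76.6 CPM under Asn restriction against 60.95, 59.2 and 67.9 CPM in control medium at 4 h, 62.2, 55.8 and 55.7 CPM under Asn restriction against 59.5, 59.6 and 58.3 CPM in control medium at 24 h, and 49.2, 58.7 and 49.1 CPM under Asn restriction against 38.97, 20.1 and 40.8 CPM in control medium at 72 h. It was called only at 72 h, where it was higher (0.63 ± 0.13, edgeR adjusted p = 1.3e-04), and the lowest control value came from the replicate 2 library that stood apart. Without that library its change was 0.39 (edgeR adjusted p = 5.4e-05). Orc5 (chr5:22486485-22550429, minus strand) had 9.68, 11.1 and 11.1 CPM under Asn restriction against 10.3, 8.12 and 8.90 CPM in control medium at 4 h, 21.4, 17.5 and 18.2 CPM under Asn restriction against 22.2, 21.5 and 23.02 CPM in control medium at 24 h, and 27.7, 33.9 and 31.8 CPM under Asn restriction against 28.3, 28.4 and 30.9 CPM in control medium at 72 h, and was called at none of the 3 times, the nearest being 24 h (-0.22 ± 0.10, edgeR adjusted p = 0.06). Its Asn-restricted libraries all lay below the control libraries at 24 h. DESeq2 called it lower there (adjusted p = 0.044). With single libraries left out, edgeR called it lower at 24 h in 1 omission (edgeR adjusted p = 0.018).

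Orc1, called at all 3 times, and Orc3, called only at 72 h, both hold an E2F motif upstream. The windows are drawn as above from chr4:108579254-108579453 (plus strand) and chr4:34614943-34615142 (minus strand).
Orc1: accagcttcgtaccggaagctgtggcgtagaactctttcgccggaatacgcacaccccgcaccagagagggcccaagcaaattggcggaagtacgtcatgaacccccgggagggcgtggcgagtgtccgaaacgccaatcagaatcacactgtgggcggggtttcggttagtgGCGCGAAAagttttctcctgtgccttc
Orc3: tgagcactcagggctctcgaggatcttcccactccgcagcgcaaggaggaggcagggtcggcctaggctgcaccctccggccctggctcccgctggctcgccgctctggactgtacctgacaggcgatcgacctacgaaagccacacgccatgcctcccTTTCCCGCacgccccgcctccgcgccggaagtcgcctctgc
Each held 1 match, and the last 31 bases of the Orc1 run lie in an exon of GENCODE M21. Orc1 has GCGCGAAA near the start, the reverse complement of TTTCGCGC, and Orc3 has TTTCCCGC. The motif therefore stood upstream of the ORC gene with the largest change at 24 h and of one that was not called at that time. The windows of Orc2, Orc4, Orc5 and Orc6 held no such motif, and of these Orc2 and Orc6 were called lower at 24 h.

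Levels can be compared between subunits per kilobase of exon, using the summed exon length in GENCODE M21. At 4 h the order of levels in Asn-restricted cells was Orc2, Orc3, Orc4, Orc6, Orc5 and Orc1, each library of one subunit lying above all libraries of the next. Orc1 was then the scarcest, at 0.264 ± 0.0365 CPM per kb under Asn restriction and 0.838 ± 0.123 CPM per kb in control cells (mean ± SD, n = 3). At 24 h it lay above Orc5 under Asn restriction (6.28 ± 0.316 CPM per kb), and in control cells above Orc3, Orc4 and Orc5 (16.6 ± 0.191 CPM per kb). Within the helicase, with these lengths, Mcm3 and Mcm5 had the highest levels in every group but Asn restriction at 4 h, where Mcm7 was the highest (17.1 ± 0.0644 CPM per kb) and Mcm5 and Mcm3 followed, overlapping each other. In control cells at 4 h Mcm7 was the lowest of the ring (13.3 ± 0.263 CPM per kb). These orders depend on the length taken. With the lengths deposited in the table, Mcm2 was the highest of the ring in control cells at 4 h. Mcm7 then lay above Mcm3 under Asn restriction at 24 h. At 72 h Mcm7 overlapped Mcm5 and Mcm3 under Asn restriction and overlapped Mcm3 above Mcm5 in control cells. With the deposited lengths Mcm4 and not Mcm2 was the lowest of the ring at 24 and 72 h, Mcm4 and not Mcm7 was the lowest in control cells at 4 h, and Orc3 lay above Orc1 in control cells at 24 h. With both lengths Mcm7 was the highest of the ring under Asn restriction at 4 h and Orc1 was the lowest of ORC at 4 h.

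**Figure D3:**
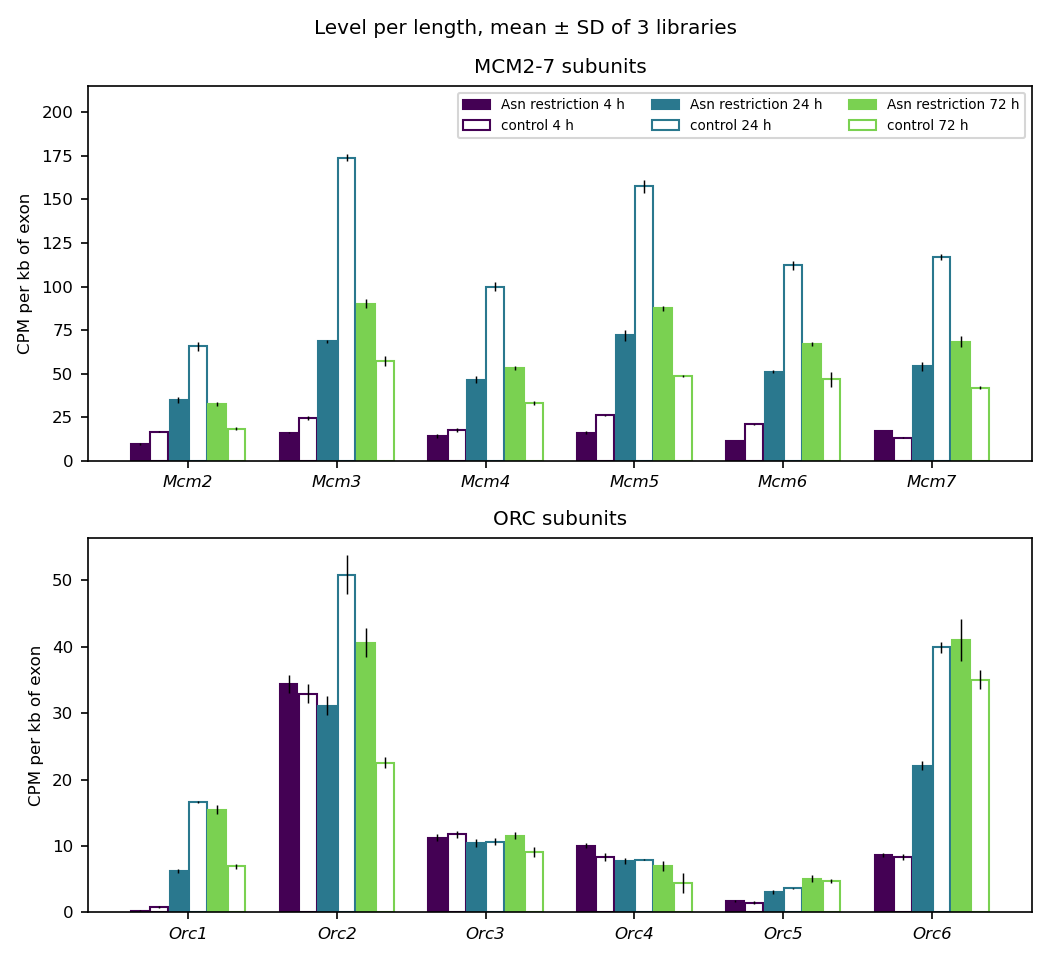
Levels of the 6 helicase and the 6 ORC subunits in CPM per kilobase of exon (bars, mean of 3 libraries; error bars, SD), with filled bars for Asn restriction and open bars for control at 4, 24 and 72 h. At 24 h the filled helicase bars stand below the open ones, at 72 h above them, and the bars of Orc3 differ little between the media at 24 h.

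Cdc6 and Cdt1 bring the helicase to ORC, and geminin inhibits Cdt1. Cdc6 (chr11:98907801-98923940, plus strand) had 1.67, 1.95 and 1.57 CPM under Asn restriction against 1.11, 1.34 and 1.63 CPM in control medium at 4 h, 35.6, 38.1 and 32.9 CPM under Asn restriction against 107, 112 and 118 CPM in control medium at 24 h, and 87.6, 84.4 and 80.1 CPM under Asn restriction against 40.1, 36.3 and 40.00 CPM in control medium at 72 h. At 4 h it rested on as few as 15 counts and the difference did not pass the test (0.32 ± 0.22). At 24 h it was lower in every Asn-restricted library, at 31.7% of the control level (-1.66 ± 0.07, edgeR adjusted p = 1.3e-18), and at 72 h higher in every one (1.11 ± 0.07, edgeR adjusted p = 3.6e-14). Cdt1 was among the 3 genes that were higher under Asn restriction at 4 h (0.59 ± 0.09), and was then lower at 24 h (-0.78 ± 0.08) and higher at 72 h (0.48 ± 0.08). Cdt1 had 54.02, 58.4 and 54.96 CPM under Asn restriction and 40.7, 34.2 and 35.9 CPM in control medium at 4 h, without overlap. With spike-in totals Cdt1 was not called at 4 h (0.46, edgeR adjusted p = 0.086). Geminin was lower at 24 h (-1.40 ± 0.07) and higher at 72 h (0.58 ± 0.07), so loader and inhibitor moved the same way at both times. The sequence upstream of Cdc6, shown because Cdc6 changed most of the loading genes, lies at chr11:98908001-98908150 (plus strand) and holds 1 E2F motif, GCGGGAAA, the reverse complement of TTTCCCGC. Here 150 bases before the RefSeq start are shown, which lie between exons of Cdc6 in GENCODE M21.
Cdc6: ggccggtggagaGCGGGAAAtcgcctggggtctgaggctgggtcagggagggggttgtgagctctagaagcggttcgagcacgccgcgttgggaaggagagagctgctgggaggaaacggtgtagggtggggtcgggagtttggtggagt

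Of the genes that activate the helicase, all 6 were lower under Asn restriction at 24 h (median -1.30) and 4 were higher at 72 h (median 0.34). Mcm10, which helps to start the helicase, had 2.53, 1.89 and 1.18 CPM under Asn restriction against 2.23, 0.981 and 1.96 CPM in control medium at 4 h, 40.2, 40.8 and 40.9 CPM under Asn restriction against 121, 124 and 122 CPM in control medium at 24 h, and 75.9, 78.3 and 80.5 CPM under Asn restriction against 50.99, 50.6 and 55.5 CPM in control medium at 72 h. It changed most of this group at 24 h (-1.59 ± 0.08, edgeR adjusted p = 5.6e-17) and at 72 h (0.58 ± 0.08, edgeR adjusted p = 3.0e-07). Cdc45 was lower at 24 h (-1.51 ± 0.10). Its call at 72 h was slight (0.23 ± 0.10, edgeR adjusted p = 0.046) and was lost when any library of the comparison but control replicate 2 was left out, with an adjusted p of up to 0.13. Of the GINS genes, Gins1 and Gins4 were higher at 72 h (0.50 ± 0.09 and 0.44 ± 0.08).

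Gins2 and Gins3 were not called at 72 h. Gins2 (chr8:120578633-120589304, minus strand) had 2.74, 2.38 and 2.29 CPM under Asn restriction against 3.81, 5.17 and 3.73 CPM in control medium at 4 h, 24.8, 24.3 and 27.3 CPM under Asn restriction against 66.8, 66.03 and 69.8 CPM in control medium at 24 h, and 51.6, 40.7 and 46.5 CPM under Asn restriction against 43.8, 50.7 and 43.2 CPM in control medium at 72 h. It was lower at 4 and 24 h, while at 72 h the media overlapped and the change was 0.01 ± 0.09. Exons of Gse1 on the opposite strand cover 67.3% of the exon bases of Gins2, and the sources used here do not say whether counting used strand. Gins3 (chr8:95633453-95645060, plus strand) had 2.37, 2.26 and 2.09 CPM under Asn restriction against 2.82, 2.59 and 4.21 CPM in control medium at 4 h, 10.7, 9.65 and 8.12 CPM under Asn restriction against 14.3, 19.3 and 16.5 CPM in control medium at 24 h, and 15.04, 14.5 and 14.02 CPM under Asn restriction against 11.1, 11.8 and 14.3 CPM in control medium at 72 h. It was lower at 24 h (-0.81 ± 0.14), and its call at 4 h (-0.56 ± 0.22, edgeR adjusted p = 0.036) was lost without control replicate 3 or any one of the Asn-restricted libraries. Without control replicate 3 that change was -0.26 (edgeR adjusted p = 0.43).

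Polymerase alpha and primase lay the primer that starts each fragment, and their 4 genes were lower at 24 h (median -0.98) and higher at 72 h (median 0.84). Pola1, the catalytic subunit (chrX:93304767-93632155, minus strand), had 28.1, 24.8 and 27.6 CPM under Asn restriction against 30.3, 32.6 and 33.2 CPM in control medium at 4 h, 71.2, 59.7 and 58.7 CPM under Asn restriction against 138, 151 and 143 CPM in control medium at 24 h, and 125, 144 and 129.7 CPM under Asn restriction against 72.4, 74.97 and 74.2 CPM in control medium at 72 h. At 24 h it was the most changed of the 4 (-1.19 ± 0.07, edgeR adjusted p = 1.7e-15). Prim1, the primase subunit that makes the RNA (chr10:128015168-128030037, plus strand), had 18.4, 20.1 and 18.2 CPM under Asn restriction against 18.8, 17.7 and 19.96 CPM in control medium at 4 h, 56.5, 58.8 and 56.7 CPM under Asn restriction against 90.5, 104 and 103 CPM in control medium at 24 h, and 76.7, 75.6 and 78.6 CPM under Asn restriction against 42.4, 36.7 and 41.7 CPM in control medium at 72 h. Its media overlapped at 4 h and were apart at 24 and 72 h, with the largest rise of the 4 at 72 h (0.93 ± 0.07, edgeR adjusted p = 1.2e-12). At 4 h Pola1 and Pola2 were called lower, and both calls rested on single libraries. That of Pola1 (-0.26 ± 0.08) was lost without control replicate 3 or Asn-restricted replicate 2 (adjusted p of up to 0.098), and that of Pola2 (-0.18 ± 0.08) without any library but Asn-restricted replicate 1 (adjusted p of up to 0.28). Prim2 rose least at 72 h (0.26 ± 0.09, edgeR adjusted p = 0.016), and without control replicate 2 its adjusted p was 0.053.

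The polymerases that extend the strands split at 72 h. Pold1 and Pole encode the catalytic subunits of polymerases delta and epsilon, and Pold2 and Pole2 encode the second subunits. All 4 were lower under Asn restriction at 24 h (median -1.09). At 72 h Pold2 and Pole2 were higher, whereas Pold1 and Pole were the 2 genes of the 44 called lower. Pold1 (chr7:44532746-44548849, minus strand) had 21.5, 25.4 and 22.7 CPM under Asn restriction against 54.1, 57.2 and 50.4 CPM in control medium at 4 h, 119, 136 and 142 CPM under Asn restriction against 289, 286 and 272 CPM in control medium at 24 h, and 205, 175 and 188 CPM under Asn restriction against 208, 262 and 193 CPM in control medium at 72 h. It was lower without overlap at 4 h (-1.21 ± 0.10, edgeR adjusted p = 9.4e-12) and at 24 h (-1.10 ± 0.08), while at 72 h the change was -0.22 ± 0.08 (edgeR adjusted p = 0.021). The highest control value at 72 h came from the replicate 2 library that stood apart, and without it the change was -0.08 (edgeR adjusted p = 0.31). The call was also lost without Asn-restricted replicate 2 (-0.16, edgeR adjusted p = 0.13) or 3 (-0.21, edgeR adjusted p = 0.056).

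Pole (chr5:110286306-110337474, plus strand) had 12.1, 11.5 and 11.1 CPM under Asn restriction against 17.5, 18.99 and 17.4 CPM in control medium at 4 h, 61.9, 60.6 and 56.7 CPM under Asn restriction against 139, 148 and 149 CPM in control medium at 24 h, and 88.4, 89.7 and 88.8 CPM under Asn restriction against 107, 97.8 and 99.97 CPM in control medium at 72 h. The libraries of the media did not overlap at any time, and at 72 h Pole was lower by a smaller step (-0.19 ± 0.06, edgeR adjusted p = 0.005) than at 24 h (-1.28 ± 0.06). Its call at 72 h was lost without control replicate 1 (-0.15, edgeR adjusted p = 0.054). Pold2 (chr11:5872180-5878292, minus strand) had 57.6, 58.7 and 51.5 CPM under Asn restriction against 108, 96.6 and 97.1 CPM in control medium at 4 h, 83.99, 88.1 and 91.3 CPM under Asn restriction against 163, 154 and 157 CPM in control medium at 24 h, and 99.2, 94.5 and 108 CPM under Asn restriction against 46.4, 49.7 and 44.98 CPM in control medium at 72 h. It was lower at 4 and 24 h, with similar changes (-0.85 ± 0.06 and -0.85 ± 0.06), and higher at 72 h by 1.10 ± 0.07 (edgeR adjusted p = 5.3e-15). At 72 h its Asn-restricted level was 2.14 times the control level. The subunits of polymerase delta thus differed in sign at 72 h, although scaling by spike-in totals gave Pold1 (0.085) and Pole (0.15) positive changes that were not called.

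PCNA is the ring that holds polymerases on DNA, and the RFC subunits and Dscc1 belong to its loaders. The clamp gene Pcna (chr2:132249162-132253314, minus strand) had 389.7, 382 and 364 CPM under Asn restriction against 348, 361 and 358 CPM in control medium at 4 h, 527, 547 and 559 CPM under Asn restriction against 939, 991 and 979.7 CPM in control medium at 24 h, and 764, 768 and 711 CPM under Asn restriction against 364, 335 and 372 CPM in control medium at 72 h. The libraries of the media did not overlap at any time, yet the difference of 0.09 ± 0.05 at 4 h did not pass the test (edgeR adjusted p = 0.11). Pcna was lower at 24 h (-0.83 ± 0.04, edgeR adjusted p = 4.6e-16) and higher at 72 h, at 2.09 times the control level (1.06 ± 0.05, edgeR adjusted p = 1.8e-18). A processed pseudogene of Pcna is annotated, and reads from near-identical copies can be shared among them.

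**Figure D4:**
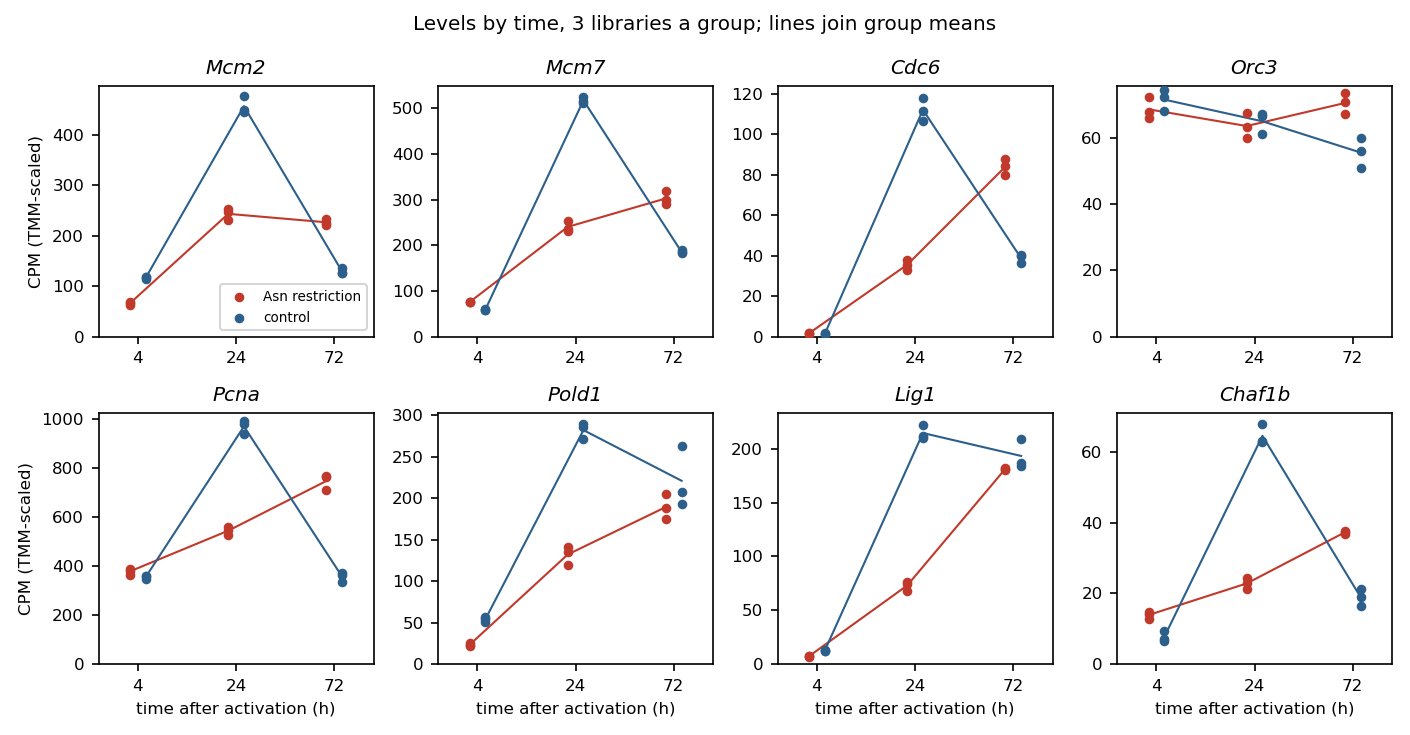
Levels of 8 genes in CPM (vertical axes, from 0) at 4, 24 and 72 h (horizontal axes, evenly spaced), with points for single libraries and lines through the group means, Asn restriction in red and control in blue. In Pcna the red line lies below the blue at 24 h and above it at 72 h, the red points of Lig1 end below the blue, those of Pold1 overlap the blue at 72 h, and Orc3 stays between 50.9 and 74.4 CPM in all libraries.

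All 7 clamp and loader genes were lower at 24 h (median -1.12) and 5 were higher at 72 h. Dscc1, a subunit of an alternative loader that acts in sister chromatid cohesion (chr15:55076099-55090491, minus strand), had 0.484, 0.671 and 0.131 CPM under Asn restriction against 1.17, 0.446 and 0.527 CPM in control medium at 4 h, 8.01, 5.06 and 7.58 CPM under Asn restriction against 23.4, 23.8 and 26.9 CPM in control medium at 24 h, and 13.4, 12.4 and 12.3 CPM under Asn restriction against 9.13, 7.77 and 7.44 CPM in control medium at 72 h. Its change at 24 h was the largest of the 44 genes (-1.83 ± 0.16, edgeR adjusted p = 2.5e-11), and its 4 h values rested on as few as 2 counts. Rfc2 (chr5:134581366-134601805, plus strand) had 20.2, 23.2 and 21.1 CPM under Asn restriction against 25.9, 24.3 and 24.99 CPM in control medium at 4 h, 52.1, 53.5 and 56.5 CPM under Asn restriction against 109, 101 and 98.7 CPM in control medium at 24 h, and 98.7, 96.4 and 93.4 CPM under Asn restriction against 89.6, 106 and 82.8 CPM in control medium at 72 h. Rfc4 (chr16:23113943-23127737, minus strand) had 8.23, 7.69 and 7.72 CPM under Asn restriction against 6.39, 7.40 and 7.90 CPM in control medium at 4 h, 36.5, 31.9 and 31.9 CPM under Asn restriction against 79.4, 77.5 and 80.4 CPM in control medium at 24 h, and 49.9, 52.7 and 53.1 CPM under Asn restriction against 51.05, 49.6 and 48.1 CPM in control medium at 72 h. Neither was called at 72 h, where the changes were 0.06 ± 0.07 for Rfc2 and 0.07 ± 0.07 for Rfc4, and without control replicate 2 Rfc2 was higher (0.16, edgeR adjusted p = 0.039). Exons of Lat2 and of Eif4a2 on the opposite strand cover 15.1% of the exon bases of Rfc2 and 12.7% of those of Rfc4. Rfc5 was the loader subunit with the largest rise at 72 h (0.96 ± 0.08). At 4 h Rfc2 (-0.22 ± 0.09) and Rfc5 (-0.30 ± 0.11) were called lower. The call of Rfc2 was lost without replicate 1 or 3 of either medium (adjusted p of up to 0.17), and that of Rfc5 without any library but Asn-restricted replicate 1 (adjusted p of up to 0.14). Wsb2 on the opposite strand covers 10.7% of the exon bases of Rfc5.

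Replication protein A coats the unwound strand, and its 3 genes moved together, all lower at 4 and 24 h and all higher at 72 h. Rpa1, the large subunit (chr11:75298166-75348324, minus strand), had 38.7, 37.1 and 42.2 CPM under Asn restriction against 66.2, 63.9 and 69.7 CPM in control medium at 4 h, 128, 129 and 123 CPM under Asn restriction against 234, 242 and 238 CPM in control medium at 24 h, and 207, 219.7 and 208 CPM under Asn restriction against 121, 106 and 118 CPM in control medium at 72 h. Its changes were -0.76 ± 0.06 at 4 h, -0.91 ± 0.05 at 24 h and 0.87 ± 0.05 at 72 h (edgeR adjusted p = 1.1e-14 at 72 h). The media did not overlap at any of these times.

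Fen1 trims the flap of each Okazaki fragment and Lig1 seals the nick. Both were lower at 4 and 24 h, and they parted at 72 h. Lig1 (chr7:13277283-13311433, plus strand) had 7.91, 7.62 and 6.48 CPM under Asn restriction against 13.3, 12.2 and 11.97 CPM in control medium at 4 h, 67.97, 74.9 and 76.5 CPM under Asn restriction against 222, 212 and 210.0 CPM in control medium at 24 h, and 181, 183 and 181 CPM under Asn restriction against 187, 209 and 184 CPM in control medium at 72 h. At 24 h it was at 34.01% of the control level (-1.56 ± 0.06, edgeR adjusted p = 5.4e-20), whereas at 72 h the change of -0.09 ± 0.06 did not pass the test (edgeR adjusted p = 0.19). Fen1 (chr19:10199132-10204169, minus strand) had 28.2, 35.1 and 29.8 CPM under Asn restriction against 50.5, 53.7 and 47.7 CPM in control medium at 4 h, 108, 112 and 116 CPM under Asn restriction against 228, 225 and 217 CPM in control medium at 24 h, and 129.7, 132 and 126 CPM under Asn restriction against 77.3, 86.8 and 73.7 CPM in control medium at 72 h. It was higher at 72 h (0.71 ± 0.06, edgeR adjusted p = 8.1e-11). The antisense gene Gm10143 covers 78.8% of the exon bases of Fen1.

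Chaf1a and Chaf1b encode subunits of the factor that lays histones onto new DNA, and Claspin passes the signal of a stalled fork to its checkpoint kinase. Chaf1b (chr16:93883901-93906115, plus strand) had 14.7, 12.7 and 14.3 CPM under Asn restriction against 9.39, 6.42 and 7.23 CPM in control medium at 4 h, 21.4, 24.3 and 22.9 CPM under Asn restriction against 67.9, 62.9 and 63.1 CPM in control medium at 24 h, and 37.7, 36.8 and 37.5 CPM under Asn restriction against 21.3, 16.5 and 19.1 CPM in control medium at 72 h. It rose most of the 44 genes at 4 h (0.84 ± 0.12, edgeR adjusted p = 6.8e-07), and was lower at 24 h (-1.50 ± 0.09) and higher at 72 h (0.96 ± 0.10, edgeR adjusted p = 9.2e-10). The partner subunit Chaf1a was not called at 4 h (-0.38 ± 0.16). It was lower at 24 h (-1.27 ± 0.07) and higher at 72 h (0.55 ± 0.07), with 52.5% of its exon bases covered by Ubxn6 on the opposite strand. Clspn (chr4:126556935-126593903, plus strand) had 0.377, 0.793 and 0.916 CPM under Asn restriction against 0.763, 0.624 and 1.39 CPM in control medium at 4 h, 33.3, 29.1 and 30.9 CPM under Asn restriction against 91.4, 95.3 and 98.9 CPM in control medium at 24 h, and 95.5, 88.9 and 86.7 CPM under Asn restriction against 67.8, 63.7 and 67.6 CPM in control medium at 72 h. At 4 h it rested on as few as 7 counts, and it was lower at 24 h (-1.61 ± 0.08, edgeR adjusted p = 4.8e-17) and higher at 72 h (0.44 ± 0.08, edgeR adjusted p = 1.2e-05).

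Taken by gene, 16 of the 44 were lower at 4 and 24 h and higher at 72 h, and 15 were not called at 4 h, lower at 24 h and higher at 72 h. At single times 22% of all genes were lower at 4 h, 28% lower at 24 h and 25.4% higher at 72 h. How many of all genes had each pattern over the 3 times was not counted. Mcm7, Cdt1 and Chaf1b were higher, lower and higher in turn. With spike-in totals only Chaf1b of these 3 kept its call at 4 h. Pold1 and Pole were lower at all 3 times, Pold1 at 72 h not without control replicate 2. Across the 44 genes the log2 fold changes at 24 h and at 72 h had Pearson's r of -0.04 and Spearman's rho of -0.01, a description over genes that share the same libraries at each time. Over all 44 genes the size of the fall at 24 h thus did not track that of the rise at 72 h. Cdc6 and Chaf1b had large changes at both times, whereas Lig1 fell strongly at 24 h and was not called at 72 h.

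Whether the effect of the medium differed between times was tested as a contrast of the effects in the same fit. The effect at 24 h minus that at 4 h was negative past the threshold for 34 of the 44 genes and positive for none (median -0.75), where 17.8% of all genes were called negative. Chaf1b (-2.34 ± 0.15) and Cdc6 (-1.98 ± 0.23) had the largest such differences. The effect at 72 h minus that at 24 h was positive for 43 of 44 genes and negative for none (median 1.71), where 29.5% of all genes were called positive. Without control replicate 2 at 72 h these were 43 positive and none negative, with a median of 1.72. Cdc6 (2.77 ± 0.10) and Orc1 (2.56 ± 0.11) led, and Orc5 was the gene not called. The contrasts share the 24 h libraries. Mcm2, Orc1, Gins3, Pold1, Pold2, Rpa1 and Rpa3 were called lower at both 4 and 24 h, and for these 7 genes the effects at 24 and 4 h did not differ past the threshold. Scaling the libraries by their spike-in totals left 7 negative calls in place of 34, and library totals without TMM factors gave 25 negative and 3 positive calls. Whether the spread of spike-in shares within groups removed calls of this contrast was not tested.

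Within each medium the time courses differed. In control cells 42 of the 44 genes were higher at 24 h than at 4 h (34.9% of all genes were higher), with a median of 2.44, and 42 were then lower at 72 h than at 24 h (35.1% of all genes were lower), with a median of -1.03. Without control replicate 2 at 72 h, 43 were lower and 1 higher (median -1.02). Under Asn restriction 40 were higher at 24 h than at 4 h (34.9% of all genes), with a median of 1.86, Orc2 and Orc4 being lower, and 41 were higher again at 72 h than at 24 h (35.3% of all genes), with a median of 0.59. Clspn (6.57 ± 0.14) and Cdc6 (6.34 ± 0.11) had the largest early rises in control cells, where Orc3 and Orc4 were not called. After 24 h the largest falls in control cells were those of Mcm2 (-1.82 ± 0.05), Pole2 (-1.76 ± 0.12) and Chaf1b (-1.76 ± 0.10). The largest later rises under Asn restriction were those of Clspn (1.53 ± 0.08), Gmnn (1.37 ± 0.07) and Lig1 (1.31 ± 0.06). Orc5 was the only gene of the 44 that rose after 24 h in control cells as well (0.39 ± 0.10). With spike-in totals none rose in control cells after 24 h, and 26 in place of 41 rose under Asn restriction. With library totals and no TMM factors, 43 rose and none fell under Asn restriction between 4 and 24 h.

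**Figure D5:**
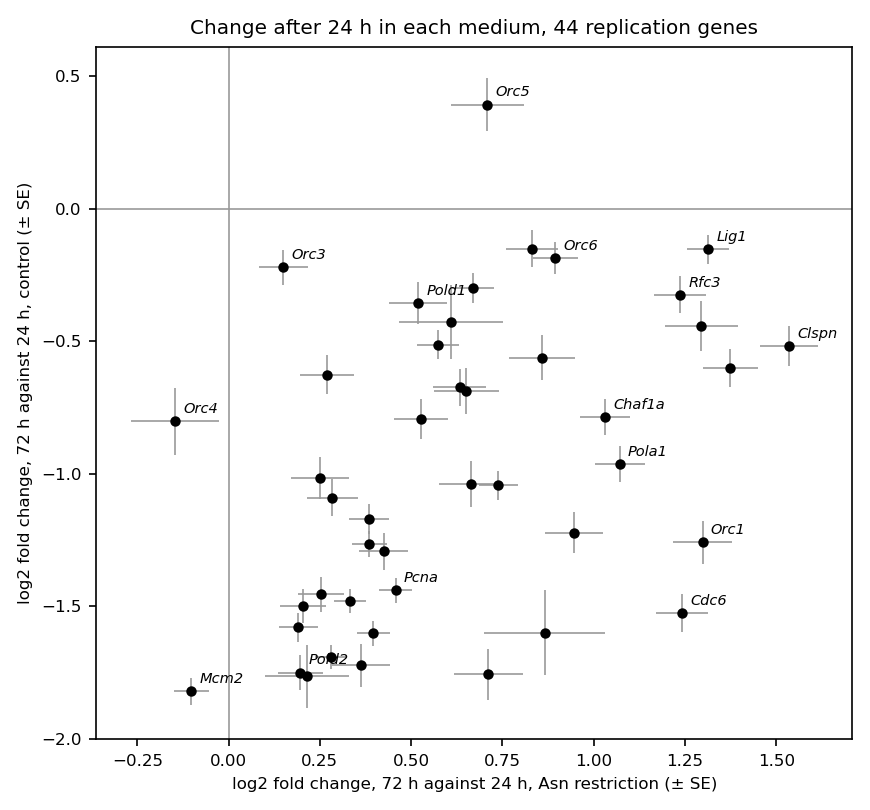
Log2 fold change between 72 h and 24 h in Asn-restricted cells (horizontal axis) and in control cells (vertical axis) for the 44 genes, ± SE on each axis. The points lie at the lower right, higher with time under Asn restriction and lower with time in control, except Orc5 (above 0 on both axes), Mcm2 and Orc4 (left of 0).

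The level reached under Asn restriction at 72 h can be set beside the control level at 24 h, the highest for most genes. It was lower for 32 of the 44 genes and higher for 1, with a median of -0.42, where 31% of all genes were lower. Mcm2 (-1.01 ± 0.05), Dscc1 (-0.96 ± 0.15) and Mcm3 (-0.95 ± 0.04) lay furthest below. With spike-in totals 11 genes were lower and 1 was higher. Orc1, Gmnn, Clspn, Pola1 and Rfc3 were among the 11 genes not called, with changes from -0.11 (Pola1) to 0.08 (Rfc3). Orc5 was the gene that was higher (0.49 ± 0.10). This comparison crosses time and medium and shares its libraries with those above. Control at 24 h held the highest mean of 39 of the 44 genes, so the direction was largely set by that choice. The share of all genes is not matched in this way.

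Genes of the same pathway outside the 44 gave a broader picture. Of 51 such genes chosen for their known roles (kinases and factors of origin firing, further polymerase subunits, nucleases, topoisomerases, histone chaperones and checkpoint genes), 50 were tested. That list too was made with earlier results of these data known. Under Asn restriction 19 were lower and 15 higher at 4 h (median -0.07), 41 were lower and 4 higher at 24 h (median -0.63), and 37 were higher and 4 lower at 72 h (median 0.36). Of all 14871 genes, 22% were lower and 3506 higher at 4 h, 28% were lower and 4085 higher at 24 h, and 25.4% were higher and 3539 lower at 72 h. At 4 h the largest falls were those of Chtf18, a loader subunit that works with Dscc1 (-1.82 ± 0.23), the nuclease Dna2 (-1.60 ± 0.35) and Rnaseh2c of ribonuclease H2 (-0.76 ± 0.10). The largest rises at that time were those of the helicase gene Recql4 (1.23 ± 0.19), Pold4 (0.96 ± 0.14) and Primpol (0.74 ± 0.12). At 24 h Exo1 (-1.59 ± 0.08), the PCNA-binding factor Pclaf (-1.50 ± 0.08) and the origin-firing factor Ticrr (-1.48 ± 0.10) fell most. At 72 h Dna2 (2.16 ± 0.13), the histone chaperone Nasp (1.36 ± 0.06) and Exo1 (0.96 ± 0.09) rose most.

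Pold4, the small subunit of polymerase delta, ran against most of the called genes among the 44 at every time. It was higher under Asn restriction at 4 and 24 h (0.66 ± 0.12 at 24 h, edgeR adjusted p = 1.5e-05) and lower at 72 h (-1.31 ± 0.09, edgeR adjusted p = 4.2e-13). Rtf2, which acts at stalled forks, was likewise higher at 24 h (0.47 ± 0.06) and lower at 72 h (-0.29 ± 0.07), Polk, a polymerase that copies damaged DNA, was higher at 24 h (0.31 ± 0.09), and Primpol, which restarts primer synthesis, was lower at 72 h (-0.85 ± 0.11).

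The summed markers of other cells lay below those of CD8+ T cells in each group, and the sums of some differed between the media. The CD8+ T cell sum was lower under Asn restriction at each time. It was 3355 to 3392 CPM against 3709 to 3806 CPM in control medium at 4 h. It was 2773 to 2835 against 2984 to 3024 CPM at 24 h, and 2716 to 2801 against 2975 to 2986 CPM at 72 h. Single CD8+ T cell markers went both ways, with log2 fold changes from -1.47 to 0.28 at 4 h and -0.66 to 0.25 at 72 h. The 9 B cell markers summed to 48.5 to 54.5 CPM under Asn restriction and 88.7 to 99.9 CPM in control medium at 24 h, and to 29.5 to 37.0 CPM under Asn restriction and 40.6 to 41.6 CPM in control medium at 72 h. Of the 8 tested, 2 were lower at 24 h and 4 at 72 h. Of all genes, 28% were lower at 24 h and 3539 of 14871 at 72 h. Most of the B cell sum was Ighm (at least 27.4 CPM in a library). The 5 markers of CD4+ and regulatory T cells summed to 41.5 to 46.9 CPM under Asn restriction and 63.2 to 65.1 CPM in control medium at 24 h. At 72 h the sums were 399 to 422 CPM under Asn restriction and 270.3 to 278 CPM in control medium, of which Ctla4, which activated CD8+ T cells also express, reached up to 358 CPM in a library and Zbtb7b up to 128 CPM. Of these 5 markers 1 was higher and 1 lower at 24 h, and 2 were higher and 2 lower at 72 h (log2 fold changes from -1.63 to 1.98). Markers of NK and gamma-delta T cells summed to at most 14.5 CPM, those of myeloid and dendritic cells to at most 7.96 CPM with Xcr1 at 0 in every library, and those of erythroid cells to at most 2.01 CPM. Their part in the results was not tested.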

How the data were processed

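RNA of mouse CD8+ T cells was sequenced in 18 libraries. The deposited table gives whole-number counts per gene, which the authors' processing notes link to Trim Galore 0.60, STAR 2.7 and RSEM 1.31 and to the builds hg19 and mm10, with no role or order given. RSEM estimates may have been rounded. A second set of deposited columns holds a signal made by the authors, counts divided by a size factor per library, and was used only for those size factors. The table also holds gene lengths and the authors' own means, fold changes and adjusted p-values, and these last columns were not used. Whether counting used strand is not given in the sources used here.

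Counts of 18522 genes, without the 63 ERCC spike-ins (0.829 to 1.72% of counts), were filtered (filterByExpr), scaled by TMM and fitted with 6 group means and 12 residual degrees of freedom by edgeR 4.0.16 (glmQLFit, glmQLFTest; limma 3.58.1, R 4.3.3), with Benjamini-Hochberg adjustment over 14871 genes and a threshold of 0.05. SE is the log2 fold change over the square root of F. The fit was also run on counts simulated from its own means and dispersions, and the outcome is not reported here. Plots used Python 3.11.15 and matplotlib 3.10.9. Positions come from GENCODE M21 (GRCm38) and promoters from RefSeq (GRCm38.p6). Values of every library are given for Pcna, for the gene with the largest change in each role group at 24 and at 72 h, and for genes not called at 24 or 72 h or called against the majority. Other replication genes are named for the 3 largest called rises and falls at each time. The genes described and all lists were chosen with earlier results of these data known. Alternatives were other scalings (DESeq2 1.42.0 size factors, library totals, spike-in totals, the authors' size factors), the DESeq2 and limma-voom tests, other filters and thresholds, a replicate block, only the libraries compared, and leaving out each library. Protein sequences were not used here.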

Additional observations from a re-analysis of the deposited data

Results flagged for a closer look

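The effect of Asn restriction on the 44 replication genes differed between time points by the test of the difference itself (edgeR's quasi-likelihood test, Benjamini-Hochberg adjusted over all genes tested). The effect at 24 h was lower than that at 4 h for 34 genes, where 17.8% of all genes tested were called lower. Spike-in totals left 7 such calls, and library totals without TMM factors gave 25 lower and 3 higher. The largest differences were -2.34 on the log2 scale for Chaf1b, -1.98 for Cdc6, -1.65 for Mcm10, -1.54 for Gmnn, -1.47 for Mcm7 and -1.37 for Cdt1.

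The effect at 72 h was higher than that at 24 h for 43 genes, where 29.5% of all genes tested were called higher. The largest log2 differences were 2.77 for Cdc6, 2.56 for Orc1, 2.47 for Chaf1b, 2.46 for Dscc1 and 2.17 for Mcm10. Both sets of differences share the libraries of 24 h.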

How the results depend on the processing

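Of the values for single genes recomputed under the alternatives, 3883 kept their direction and side of the threshold, 114 lost it, 34 gained it and 6 reversed. Leaving out a library at a time gave 21 to 24 called genes at 4 h (25 with all), 41 to 42 at 24 h and 36 to 37 at 72 h. It gave 32 to 35 for the effect at 24 h minus that at 4 h and 43 to 44 for that at 72 h minus that at 24 h. Within control cells it gave 42 to 43 for 24 h against 4 h and 41 to 44 for 72 h against 24 h, within Asn-restricted cells 41 to 43 and 39 to 41, and 30 to 33 for Asn restriction at 72 h against control at 24 h. Scaling by spike-in totals gave 16 called genes at 4 h, 7 for the effect at 24 h minus that at 4 h, 26 for Asn restriction at 72 h against 24 h (41 with TMM) and 12 for Asn restriction at 72 h against control at 24 h (33 with TMM). A minimum fold change of 1.5 gave 14 at 4 h, 21 at 72 h, 22 for Asn restriction at 72 h against 24 h and 17 for Asn restriction at 72 h against control at 24 h. With spike-in totals the change at 72 h was 0.085 for Pold1 (adjusted p = 0.77) and 0.15 for Pole (adjusted p = 0.60), and the effect at 24 h minus that at 4 h was 0.10 for Mcm6, 0.013 for Rfc1 and 0.075 for Fen1. With library totals and no TMM factors that difference was 0.23 for Pold2 (adjusted p = 0.039). The cause was not tested.

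Library totals moved the median of all genes by -0.11, 0.11 and -0.11 at 4, 24 and 72 h and split all calls into 2582 higher and 4268 lower, 4961 and 3294, and 3045 and 4554. The TMM splits were 3506 and 3277, 4085 and 4167, and 3774 and 3539. Spike-in totals gave 942 and 2122, 3790 and 1099, and 4239 and 754. Same-numbered libraries of the media did not deviate together (correlations of -0.052 to 0.010). This shows no shared deviation in levels and cannot tell whether same-numbered libraries shared a mouse or culture. A replicate block gave 25, 41 and 37 called genes at 4, 24 and 72 h, 34 and 43 for the differences between effects, 42 and 43 within control cells, 42 and 41 within Asn-restricted cells, and 32 for Asn restriction at 72 h against control at 24 h. Depth limits the 4 h values of Dscc1, Clspn, Mcm10, Cdc45, Orc1 and Cdc6, whose lowest libraries held 2, 7, 11, 12, 13 and 15 counts.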
